A study of Mus musculus with 27 samples.

Results

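The 6 genes described here encode CXC chemokines: Cxcl1, Cxcl2 and Cxcl3, which attract neutrophils, Cxcl9 and Cxcl10, which interferons induce, and Cxcl16, which is made as a membrane-bound protein. They were chosen by symbol and matched to the Ensembl identifiers of a table of 38124 genes, and all 6 were among the 13599 genes with enough counts to be tested. The libraries came from alveolar macrophages of C57B/6 mice of 8 to 14 weeks, washed from the lung and sorted on surface markers. To injure the lung, lipopolysaccharide (LPS), which bacteria carry in their outer membrane, had been put into the trachea, at a dose the labels give as 20 ng in 50 µL of saline. Resident macrophages (CD11c+CD11b-) were taken from mice given no treatment, called day 0, and on days 3, 6, 9 and 12 after LPS. Recruited macrophages (CD11c-CD11b+) were taken on days 3, 6, 9 and 12, so they have no untreated group. Each of the 9 groups had 3 libraries, 27 in all. Whether each library was its own animal is not stated, so p-values measure only the spread between these libraries, which may be technical. No group had received saline alone.

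Chemokines are small secreted proteins that guide leukocytes along a gradient. CXCL1, CXCL2 and CXCL3 act on the receptor CXCR2, which is abundant on neutrophils, and their genes are switched on by NF-κB downstream of Toll-like receptors and interleukin 1. CXCL9 and CXCL10, together with CXCL11, act on CXCR3, which is found on activated T cells and natural killer cells, and their genes respond to interferons through factors that include the interferon regulatory factors. CXCL16 sits on the cell surface, where it binds oxidised lipoprotein, and is released by the proteases ADAM10 and ADAM17 to act on CXCR6. In the lung, macrophages are among the first cells to make these proteins after LPS.

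Of the 6 genes 5 lie on mouse chromosome 5 in 2 clusters (build GRCm38, GENCODE M21, all protein coding). Cxcl3 (ENSMUSG00000029379) spans chr5:90786103-90789600, Cxcl1 (ENSMUSG00000029380) chr5:90891241-90893115 and Cxcl2 (ENSMUSG00000058427) chr5:90903871-90905938, all on the plus strand. Cxcl1 and Cxcl2 are neighbours, 10756 bp apart. Cxcl9 (ENSMUSG00000029417) spans chr5:92321347-92328079 and Cxcl10 (ENSMUSG00000034855) chr5:92346638-92348889, both on the minus strand and 18559 bp apart. Cxcl16 (ENSMUSG00000018920) lies apart from them, at chr11:70453983-70459984 on the minus strand. The whole of Cxcl10 lies within the span of Art3 on the opposite strand, and 552 bp of Cxcl16 overlap Zmynd15, also on the opposite strand. The sources used here do not give the strand setting of the deposited counting, so reads in these overlaps may be shared or lost. Of the 30-base stretches of Cxcl2 transcripts, 7.79% also occur in another gene, all of them in Cxcl3, and of those of Cxcl3 5.61% occur elsewhere, so counts of these 2 genes can be split in part. The share was 0% in Cxcl1 and Cxcl10, 0.574% in Cxcl9 and 0.0356% in Cxcl16.

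The sequences just upstream of the start sites are shown because the neutrophil-attracting genes share the run GGGAATTTCC there. This run was not found in those of Cxcl9 and Cxcl10. Shifted by 1 base, the stretch shared by the neutrophil-attracting genes also occurs in Cxcl10, on the other strand. The sequences are RefSeq promoter sequences of build GRCm38.p6, 5′ to 3′ on the strand of the gene, ending 1 base before the RefSeq start. Positions below are counted from that start, which can differ from the GENCODE one. The Cxcl2 sequence ends at 90903898, inside the GENCODE span, which begins at 90903871. Of the 6 genes 5 had an entry, and Cxcl16 had none. Capitals mark matches, on either strand, to 3 motifs: GGGNNNTTCC, a form of the NF-κB site, GAAANNGAAA, a form of the interferon-stimulated response element, and TGANTCA, the AP-1 form.
Cxcl1, chr5:90891145-90891244, plus strand: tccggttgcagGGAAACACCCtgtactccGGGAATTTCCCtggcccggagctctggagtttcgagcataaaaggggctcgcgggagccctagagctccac
Cxcl2, chr5:90903799-90903898, plus strand: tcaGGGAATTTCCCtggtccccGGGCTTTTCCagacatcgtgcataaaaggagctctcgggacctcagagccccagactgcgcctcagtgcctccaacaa
Cxcl3, chr5:90786001-90786100, plus strand: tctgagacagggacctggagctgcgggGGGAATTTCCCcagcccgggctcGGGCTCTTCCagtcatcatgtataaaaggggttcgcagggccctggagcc
Cxcl10, chr5:92348890-92349109, minus strand: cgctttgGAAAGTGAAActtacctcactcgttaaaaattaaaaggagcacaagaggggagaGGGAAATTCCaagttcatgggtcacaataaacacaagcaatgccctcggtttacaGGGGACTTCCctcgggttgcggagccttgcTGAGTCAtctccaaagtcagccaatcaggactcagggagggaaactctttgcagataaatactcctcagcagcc

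Cxcl1, Cxcl2 and Cxcl3 each held the same 10 bases, GGGAATTTCC, at -71 to -62, -97 to -88 and -73 to -64 from the start. The letters of this run were taken from the promoters of these 3 genes, so its presence in them is no test. With them included, the run was found in 28 of 32851 promoter sequences of 250 bases upstream, 0.0852% of them. The wider form GGGNNNTTCC was found in 4.65% of the promoter sequences. Each of the 3 genes also held GGAATTTCCC, 1 base further on, which matches the wider form on the minus strand. A separate match lay in Cxcl1 at -89 to -80 on the minus strand, in Cxcl2 at -78 to -69 and in Cxcl3 at -50 to -41. Cxcl10 held matches to the wider form at -159 to -150 and -104 to -95. The first of these, GGGAAATTCC, is GGAATTTCCC read on the other strand. Cxcl10 was the only gene of the 5 with a match to GAAANNGAAA (-213 to -204, 2.98% of promoter sequences) and to TGANTCA (-74 to -68, 6.75%). Cxcl9 held no match to any of these 3 motifs, which says only that these letters are not in its window.

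The libraries held 11093216 to 18299674 counts (median 14859352). Reads outside genes were 6.77% to 26.5%, the highest share in recruited day 6 library 2. Summed over 11 alveolar macrophage markers, such as Siglecf, Marco and Fabp4, the level was 15783 to 33328 CPM (counts scaled to the library total) in resident libraries and 2243 to 10360 CPM in recruited ones. The sum of 11 monocyte-derived macrophage markers, such as Ly6c2, Ccr2 and F13a1, was 1245 to 11790 CPM in resident and 11794 to 46630 CPM in recruited libraries. Libraries of the 2 populations with the same day and number deviated together from their group means in 12 of 12 pairs, so a fit with the pair as a block is named where it changes a call. Levels below are CPM on the same TMM scale, listed for libraries 1, 2 and 3. Changes are on the log2 scale, with the standard error (SE), and adjusted p-values come from edgeR's quasi-likelihood F test with Benjamini-Hochberg adjustment over all tested genes, with a threshold of 0.05. A difference in level per library does not separate fewer expressing cells from less RNA per cell.

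All 6 genes were highest on day 3 in both populations (the plot of levels per library). In the group means, each gene was highest in recruited cells of day 3, with resident cells of day 3 in the next place for the 5 genes of chromosome 5. For Cxcl16 the 4 recruited groups came first, in the order of their days, and then the resident groups of days 3, 6, 9, 12 and 0. Neighbours in these orders mostly overlapped in their libraries. The exceptions for Cxcl10 were recruited day 3 over resident day 3, that group over day 0, and day 0 over recruited day 6. For Cxcl16 they were recruited day 6 over day 9, recruited day 12 over resident day 3, resident day 3 over day 6, and resident day 12 over day 0. Cxcl3 and Cxcl9 each had a gap between resident day 3 and the next group, Cxcl3 another between resident day 6 and recruited day 9, and Cxcl2 1 between recruited day 6 and resident day 6. No neighbours of Cxcl1 were apart.

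**Figure D1:**
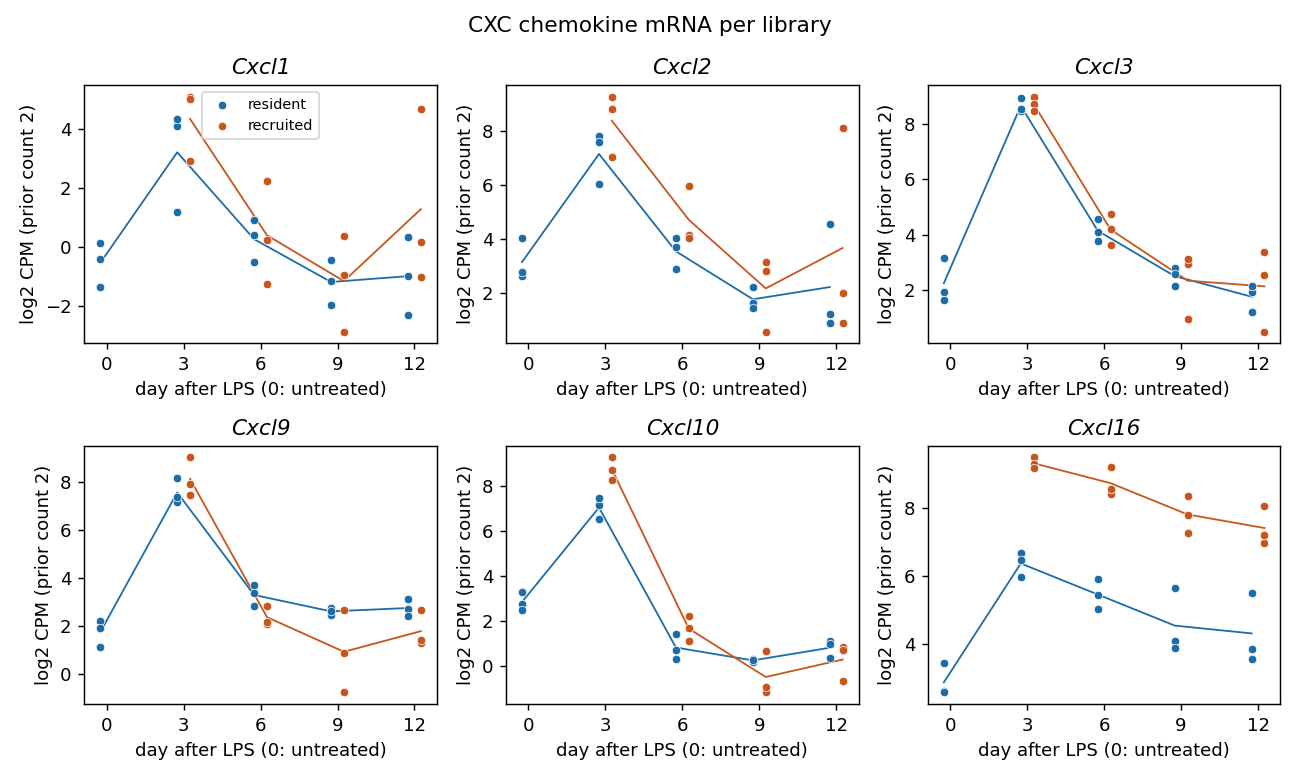
Level of each gene in the 27 libraries, as log2 CPM with a prior count of 2 (vertical axis, scaled per gene), against the day after LPS (day 0 is untreated). Points are libraries, lines join the means of resident (blue) and recruited (orange) groups of 3; all genes peak on day 3, Cxcl16 runs higher in recruited cells on all 4 days, and 1 recruited library of day 12 stands far above the other two for Cxcl1 and Cxcl2.

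Resident macrophages of day 3 were compared with untreated ones to ask what the injury did to cells already in the airspace. All 6 genes rose, against 23.8% of all tested genes called and 13.3% called higher. The median of the 6 changes was 4.33 on the log2 scale, against 0.0030 over all tested genes. For each gene the 3 libraries of day 3 lay above the 3 untreated libraries, as the libraries of 44.7% of tested genes did not overlap in one direction or the other.

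Among the neutrophil-attracting genes, Cxcl1 was at 0.964, 0.613 and 0.252 CPM in untreated resident cells and at 2.10, 17.02 and 20.2 CPM on day 3. Day 3 library 1 was thus far below the other two. The change was 4.41 ± 1.35 (SE; adjusted p = 0.0225). Cxcl2 went from 16.2, 6.13 and 6.67 CPM to 65.4, 226 and 191 CPM, again with library 1 lowest on day 3, a change of 4.05 ± 1.34 (adjusted p = 0.0341). Cxcl3 was the least variable of the 3: it was at 8.68, 2.99 and 3.65 CPM before and at 357, 373 and 495 CPM on day 3, a rise of 6.31 ± 0.59 (adjusted p = 2.33e-07) in which library 1 did not stand apart from library 2. The rise of Cxcl3 was called in all 15 alternatives run. That of Cxcl1 was lost when any 1 untreated library or day 3 library 3 was left out (adjusted p = 0.0504 to 0.0918). That of Cxcl2 was lost when any 1 untreated library, or day 3 library 2 or 3, was left out (adjusted p = 0.0592 to 0.117), and with no filter on low counts (adjusted p = 0.0681).

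The interferon-induced genes rose with little spread. Cxcl9 was at 4.50, 3.60 and 2.01 CPM in untreated cells and at 142, 164 and 289 CPM on day 3, a change of 5.88 ± 0.61 (adjusted p = 1.05e-06). Cxcl10 was at 9.58, 6.59 and 5.47 CPM and then at 91.8, 144 and 177 CPM, a change of 4.25 ± 0.38 (adjusted p = 8.29e-08). Cxcl16 rose from 10.8, 6.05 and 5.91 CPM to 101, 62.0 and 88.7 CPM, by 3.47 ± 0.55 (adjusted p = 0.000142). All 3 rises were called in each of the 15 alternatives.

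Against the same untreated libraries, the genes parted after day 3. On day 6, when 6.42% of tested genes were called (3.77% higher, 2.65% lower), Cxcl16 was still higher, at 59.8, 32.7 and 43.3 CPM (2.57 ± 0.53, adjusted p = 0.00596). Cxcl3 was higher at 23.7, 13.3 and 16.9 CPM (1.80 ± 0.53, adjusted p = 0.0451), a call lost when any of 5 of the 6 libraries was left out (adjusted p = 0.0612 to 0.170), with library size alone as scaling (adjusted p = 0.0727) and with no filter (adjusted p = 0.0989). Cxcl10 had turned the other way. It was at 2.50, 1.50 and 1.10 CPM, below all untreated libraries (-2.09 ± 0.43, adjusted p = 0.00567). Of tested genes 3.49% were called on day 9 (1.61% higher, 1.88% lower) and 1.3% on day 12 (1.1% higher, 0.206% lower).

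Cxcl10 was the only one of the 6 among the genes called lower on those days. It was at 1.07, 0.995 and 1.05 CPM on day 9 (-2.79 ± 0.46, adjusted p = 0.00203) and at 1.97, 1.84 and 1.12 CPM on day 12 (-2.15 ± 0.43, adjusted p = 0.0123). The resident libraries of days 6, 9 and 12 thus all lay below the untreated ones for this gene. The day 12 call was lost without untreated library 1 (adjusted p = 0.0760) or without day 12 library 3 (adjusted p = 0.0884). Cxcl9, the neighbour of Cxcl10, was at 12.8, 6.91 and 10.1 CPM on day 6, at 6.49, 5.37 and 6.04 CPM on day 9 and at 8.53, 6.40 and 5.20 CPM on day 12. Its libraries of all 3 days were above the untreated ones (31.5%, 21% and 21.2% of tested genes did not overlap on days 6, 9 and 12), and its changes did not pass (1.56 ± 0.58, adjusted p = 0.123 on day 6; 0.83 ± 0.59, adjusted p = 0.567 on day 9; 0.99 ± 0.59, adjusted p = 0.574 on day 12).

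Cxcl16 on day 9 was at 17.1, 50.1 and 14.8 CPM in resident cells, above all untreated libraries, with a change of 1.84 ± 0.53 that did not pass (adjusted p = 0.0582). It passed in 5 of 14 alternatives (adjusted p = 0.000868 to 0.369 over the 14). These included DESeq2, library size alone as scaling, robust dispersions off and the run of library numbers in the file headers as a covariate. The last was the replicate number as a block (1.92, adjusted p = 0.0321). Between days, however, these numbers are only names, so no pairing stands behind that block. On day 12 it was at 45.7, 11.8 and 14.5 CPM (1.66 ± 0.53, adjusted p = 0.151). The high library was library 2 on day 9 and library 1 on day 12. These same libraries held the largest sums of monocyte-derived macrophage markers of their groups, 11790 CPM against 4543 and 6137 CPM on day 9, and 10329 CPM against 4566 and 5207 CPM on day 12. The same held in recruited cells, where Cxcl16 was at 324 CPM in day 9 library 2, with a marker sum of 46125 CPM, and at 262 CPM in day 12 library 1, with 46630 CPM. This did not hold on days 0, 3 and 6, when library 1 was highest in Cxcl16 in each group. That library had the lowest marker sum in resident cells of day 0 (1245 CPM), day 3 (3122 CPM) and day 6 (8421 CPM). It also had the lowest in recruited cells of day 3 (11794 CPM), and the middle one in those of day 6 (37462 CPM). The high libraries of days 9 and 12, resident and recruited, had header numbers 12, 13, 17 and 18. They make up a whole run of library numbers, and that run has no library of days 0, 3 or 6. These libraries had 6.77% to 7.06% of reads outside genes, the lowest shares of all libraries. Run and marker sum go together in them, and their parts in the Cxcl16 values were not separated. The part of monocyte-derived cells in the Cxcl16 values was not tested. Cxcl1 and Cxcl2 were not called against day 0 on days 6, 9 or 12.

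Recruited macrophages were compared with resident ones on each day to ask how the 2 origins differ. Averaged over the 4 days, 2 of the 6 genes were higher in recruited cells, Cxcl16 by 3.04 ± 0.26 (adjusted p = 2.89e-09) and Cxcl2 by 1.69 ± 0.64 (adjusted p = 0.0285). Of all tested genes 60.3% were called, and 30.3% were called higher in recruited cells, so a count of 2 in 6 was near the background. Cxcl16 was far from the spread of its libraries, and Cxcl2 was not. The 4 others were not called: Cxcl1 at 1.59 ± 0.71 (adjusted p = 0.0591), Cxcl3 at 0.26 ± 0.26 (adjusted p = 0.397), Cxcl9 at -0.59 ± 0.28 (adjusted p = 0.0760) and Cxcl10 at 0.38 ± 0.26 (adjusted p = 0.221). With the pairs as a block, Cxcl1 was called (1.50, adjusted p = 0.0171). This was 1 of 8 calls of Cxcl1 in 34 alternatives. Over the 34 its difference was 0.66 to 1.93 (adjusted p = 0.0171 to 0.353). Recruited day 12 library 3 stood apart for Cxcl1 too, at 25.6 CPM against 0.359 and 0.977 CPM. The call of Cxcl2 rested on recruited day 12 library 3, without which its average difference was 0.43 (adjusted p = 0.454). Without both day 12 libraries numbered 3 it was 0.99 (adjusted p = 0.050001). It was also lost without recruited day 6 library 2 (1.47, adjusted p = 0.0594), day 9 library 1 (1.65, adjusted p = 0.05005) or day 9 library 3 (1.59, adjusted p = 0.0523). Cxcl9 came to be called without recruited day 9 library 2 (-0.89, adjusted p = 0.00570), day 3 library 2 (-0.73, adjusted p = 0.0234) or day 12 library 1 (-0.73, adjusted p = 0.0351), and with library size alone as scaling (-0.63, adjusted p = 0.0429).

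Cxcl16 was the only one of the 6 called on all 4 days, and the groups did not overlap on any of them, as was so for 56.4%, 49.6%, 38.8% and 40.7% of tested genes on days 3, 6, 9 and 12. Recruited libraries were at 706, 614 and 570 CPM on day 3, against 101, 62.0 and 88.7 CPM in resident ones. They were at 578, 339 and 375 CPM on day 6, at 221, 324 and 154 CPM on day 9 and at 262, 124 and 147 CPM on day 12. The difference was 2.91 ± 0.51 on day 3 (adjusted p = 0.000103), 3.25 ± 0.52 on day 6 (adjusted p = 5.46e-05), 3.09 ± 0.52 on day 9 (adjusted p = 0.000105) and 2.89 ± 0.52 on day 12 (adjusted p = 0.000302). It was called in every alternative run, 14 or 15 a day. In pairs of the same day and number the recruited library was higher in 12 of 12, by 2.52 to 3.68. Within the 4 runs of library numbers in the file headers, the mean pair difference was 3.25, 2.60, 3.36 and 3.04.

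On day 3, 46.6% of tested genes were called between the populations (23.2% with more in recruited cells, 23.5% with less). The 6 genes gave 2 calls, Cxcl16 and Cxcl10. Cxcl10 was at 310, 627 and 426 CPM in recruited cells, against 91.8, 144 and 177 CPM in resident cells. The lowest recruited library was above the highest resident one, and the difference was 1.72 ± 0.33 (adjusted p = 0.000202, called in all 15 alternatives). Each of the 3 day 3 pairs showed it, by 1.27 to 2.12. Cxcl9 was at 242, 520 and 174 CPM in recruited cells, and these overlapped the resident values (0.65 ± 0.47, adjusted p = 0.274). Cxcl9 was higher in recruited cells in 2 of its 3 pairs.

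The 3 neutrophil-attracting genes were not called between the populations on day 3. Cxcl1 was at 7.43, 33.9 and 31.8 CPM in recruited cells (0.89 ± 1.03, adjusted p = 0.506). Cxcl2 was at 132, 614 and 451 CPM (1.31 ± 1.17, adjusted p = 0.379). For both genes library 1 was lowest in recruited as in resident cells, and all 3 pairs were higher in the recruited library, by 0.65 to 1.76 for Cxcl1 and by 1.01 to 1.44 for Cxcl2. Cxcl3 was at 509, 422 and 357 CPM in recruited cells, with a difference of 0.07 ± 0.45 (adjusted p = 0.913), and 2 of 3 pairs were higher. With the pair as a block none of the 3 was called on day 3.

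On days 6 and 9 Cxcl16 was the only one of the 6 called, against 35% and 32% of tested genes called 16.2% and 15.5% called higher, and 18.8% and 16.4% called lower. Cxcl2 on day 6 was at 17.5, 61.8 and 16.34 CPM in recruited cells, and all 3 values were above the resident 7.24, 16.30 and 12.96 CPM, the closest of them by little (1.38 ± 1.25, adjusted p = 0.430). Library 2 alone was well above. Cxcl9 in recruited cells was at 4.10, 7.06 and 4.36 CPM on day 6 (-0.96 ± 0.56, adjusted p = 0.203) and at 1.69, 6.23 and 0.449 CPM on day 9 (-1.13 ± 0.60, adjusted p = 0.166), and both groups overlapped the resident ones. Without recruited day 9 library 2, the highest of the 3, the day 9 difference was -2.37 (adjusted p = 0.00996). Cxcl10 was at 1.98, 3.06 and 4.43 CPM on day 6 (0.91 ± 0.47, adjusted p = 0.149) and at 0.299, 1.43 and 0.374 CPM on day 9 (-0.66 ± 0.64, adjusted p = 0.472) in recruited cells. Cxcl3 was at 26.3, 18.4 and 12.0 CPM on day 6 and at 7.42, 1.80 and 8.53 CPM on day 9, and Cxcl1 was at 1.03, 4.55 and 0.277 CPM and then at 1.15, 0 and 0.374 CPM. The count of 0 for Cxcl1 allows a level of up to 0.225 CPM, by counting error alone.

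**Figure D2:**
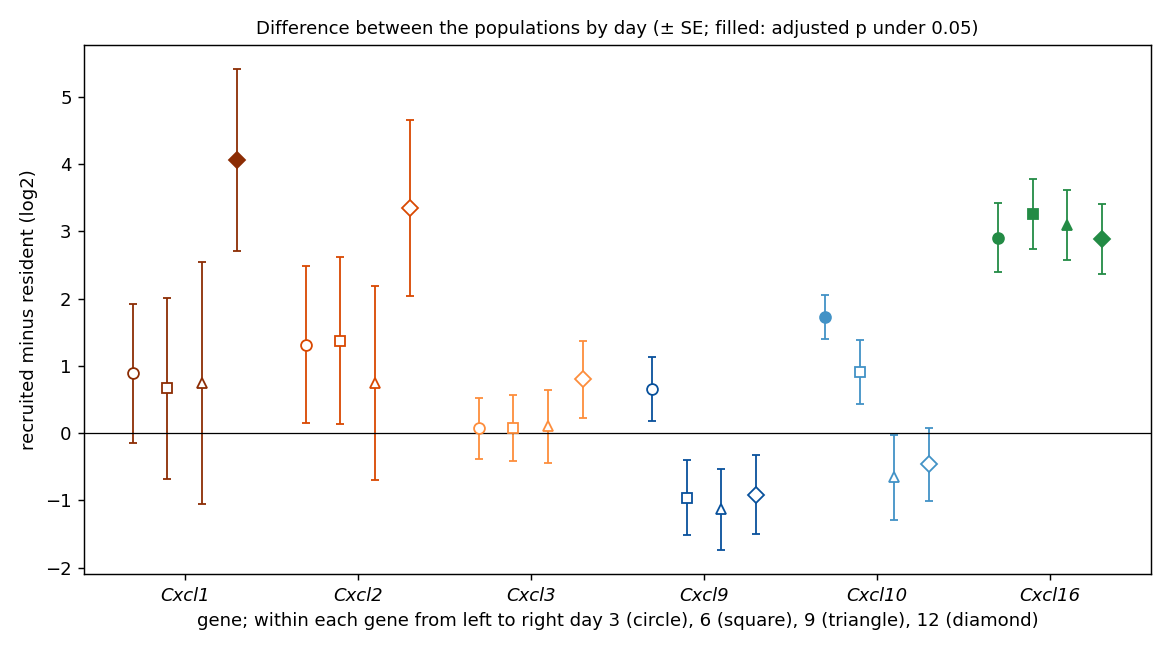
Difference between recruited and resident cells (log2, vertical axis) for each gene on days 3, 6, 9 and 12, with 3 libraries a group; bars are SE and filled symbols have an adjusted p under 0.05. Cxcl16 lies between 2.89 and 3.25 on all days, Cxcl10 passes from 1.72 on day 3 to below 0 on days 9 and 12, and the Cxcl1 and Cxcl2 values of day 12 rest on 1 library.

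On day 12, 27.3% of tested genes were called 12.6% higher and 14.7% lower in recruited cells. Beside Cxcl16, Cxcl1 was called, at 4.06 ± 1.35 (adjusted p = 0.0302). Its recruited libraries were at 0.359, 0.977 and 25.6 CPM and its resident ones at 0.0637, 0.368 and 1.12 CPM, so the groups overlapped and library 3 alone was high. Without that library the difference was 0.36 (adjusted p = 0.894), and without both libraries numbered 3 it was 1.70 (adjusted p = 0.592). The recruited library was higher in each of the 3 pairs, by 1.31, 1.14 and 4.36. The call was also lost without resident library 1 (3.57, adjusted p = 0.102) or 2 (3.88, adjusted p = 0.0961). Cxcl2 was at 1.71, 3.91 and 276 CPM in recruited and 1.72, 2.21 and 23.3 CPM in resident cells (3.35 ± 1.30, adjusted p = 0.0634), and with the pair as a block it was called (2.45, adjusted p = 0.0262). Without recruited library 3 the Cxcl2 difference was -1.68 (adjusted p = 0.324), and without both libraries numbered 3 it was 0.56 (adjusted p = 0.800). The other 2 pairs of Cxcl2 differed by -0.01 and 0.79. Cxcl3 was at 1.26, 5.65 and 10.1 CPM in recruited and 2.16, 3.61 and 4.25 CPM in resident cells (0.80 ± 0.57, adjusted p = 0.338). Cxcl9 was at 6.20, 2.30 and 2.50 CPM (-0.91 ± 0.59, adjusted p = 0.282) and Cxcl10 at 1.62, 0.489 and 1.46 CPM (-0.46 ± 0.55, adjusted p = 0.585) in recruited cells. Cxcl9 was lower in the recruited library in each of the 3 day 12 pairs, by values from -1.42 to -0.45.

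Recruited day 12 library 3 was examined further because of these values, and the genes named in it were chosen after they were seen. Of 11757 genes ranked by the log2 excess of this library over the mean of the other two, Cxcl2 was first with 6.66 and Cxcl1 second with 5.11. Then came the early response genes Egr1 (5.08) and Fosb (4.52), and Il6 (3.90), the phosphatase gene Dusp1 (3.70), the NF-κB cofactor gene Nfkbiz (3.27) and Tnf (3.20) were also among the first 10. Cxcl3 was at rank 46 with 1.85. Cxcl10 (0.61), Cxcl16 (-0.29) and Cxcl9 (-0.58) did not share the excess. Resident day 12 library 3, of the same number, also had Cxcl2 first (3.49) and Cxcl1 at rank 10 (1.99), with Fosb (3.31) and Dusp1 (2.19) between them.

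The course after day 3 was compared within each population, with day 3 as the shared reference. In resident cells 5 of the 6 genes fell by day 6 (24.5% of tested genes called, 13.3% lower) and all 6 by days 9 and 12 (24.1% and 24.2% called, 13.5% and 12.9% lower). In recruited cells 5 fell by day 6 (31.9% called, 16.8% lower), all 6 by day 9 (36.3% and 18%) and 4 by day 12 (39.3% called, 19.8% higher and 19.5% lower). The median change of the 6 genes by day 6 was -4.02 in resident and -4.11 in recruited cells, against 0.01 over all tested genes in both.

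Cxcl10 fell furthest of the 6 by day 6. It changed by -6.34 ± 0.44 in resident cells (adjusted p = 1.25e-08) and by -7.16 ± 0.44 in recruited cells (adjusted p = 3.51e-10), which left 1.24% and 0.695% of the day 3 mean. By day 9 the change was -7.04 ± 0.46 in resident and -9.42 ± 0.51 in recruited cells (adjusted p = 4.39e-09 and 4.98e-11), which left 0.754% and 0.154%. Cxcl9 had changed by -4.32 ± 0.55 by day 6 in resident cells (adjusted p = 2.08e-05) and by -5.93 ± 0.61 in recruited cells (adjusted p = 4.22e-07), which left 5.02% and 1.66%. The falls of both genes were called in each alternative run on each day.

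Cxcl3 kept nearly the same share in both populations on days 6 and 9. It was at 4.40% of its day 3 mean in resident and 4.41% in recruited cells on day 6, at 1.37% and 1.38% on day 9, and at 0.818% and 1.32% on day 12. The changes by day 6 were -4.51 ± 0.53 (adjusted p = 8.33e-06) and -4.50 ± 0.53 (adjusted p = 2.50e-06), and they were called in each alternative. Cxcl1 changed by -3.48 ± 1.24 in resident cells by day 6 (adjusted p = 0.0456) and by -3.71 ± 1.21 in recruited cells (adjusted p = 0.0247). Cxcl2 changed by -3.72 ± 1.31 (adjusted p = 0.0446) and by -3.66 ± 1.29 (adjusted p = 0.0362). These 4 calls were the weakest. In resident cells that of Cxcl1 was lost without day 3 library 2 or 3 or any 1 day 6 library (adjusted p = 0.0893 to 0.148), and so was that of Cxcl2 (adjusted p = 0.0924 to 0.133). In recruited cells both were lost without day 3 library 2 or 3 or day 6 library 1 or 3 (adjusted p = 0.0616 to 0.120). By day 12 resident Cxcl1 (-4.58 ± 1.36, adjusted p = 0.0191) and Cxcl2 (-4.11 ± 1.34, adjusted p = 0.0314) were still below day 3. Without day 12 library 1 or 2 or day 3 library 3 neither passed (adjusted p = 0.0668 to 0.114), nor did Cxcl2 without day 3 library 2 (adjusted p = 0.0659). By day 9 both genes were lower in recruited cells in every alternative, and so was Cxcl2 in resident cells, where Cxcl1 (-5.25 ± 1.45, adjusted p = 0.0120) was lost without day 9 library 1 or 3 (adjusted p = 0.0508 and 0.0560).

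In recruited cells of day 12 Cxcl1 (-1.41 ± 1.05, adjusted p = 0.308) and Cxcl2 (-2.08 ± 1.20, adjusted p = 0.180) were not below day 3 by the test. Without library 3 of day 12 both were, by -5.11 (adjusted p = 0.00340) and -7.11 (adjusted p = 0.000304). Cxcl3 (-6.20 ± 0.59), Cxcl9 (-6.45 ± 0.63) and Cxcl10 (-8.58 ± 0.48) were lower with all libraries (adjusted p = 7.15e-08, 9.95e-08 and 5.38e-11).

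Cxcl16 kept the largest share of its day 3 mean of the 6 genes on days 6 and 9. On day 6 it kept 53.9% of its day 3 mean in resident and 68.4% in recruited cells, and neither change passed (-0.89 ± 0.49, adjusted p = 0.195; -0.55 ± 0.48, adjusted p = 0.418). On day 12 it kept 28.5% and 28.3%, when recruited Cxcl1 kept 36.8% through library 3. The changes by day 12 were -1.81 ± 0.50 in resident cells (adjusted p = 0.0130) and -1.82 ± 0.49 in recruited cells (adjusted p = 0.00574). By day 9 they were -1.63 ± 0.50 (adjusted p = 0.0222) and -1.44 ± 0.49 (adjusted p = 0.0262). The resident falls were lost on leaving out day 3 library 1 or 3 or day 9 library 1 or 3 for day 9 (adjusted p = 0.0639 to 0.107), and day 12 library 2 or 3 for day 12 (adjusted p = 0.0685 and 0.0697). The recruited day 9 fall was lost without day 3 library 1 or 2 or day 9 library 1 or 3 (adjusted p = 0.0514 to 0.109), and the recruited day 12 fall was called in each of 16 alternatives. Whether the decline of Cxcl16 differed from that of the others was not tested.

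**Figure D3:**
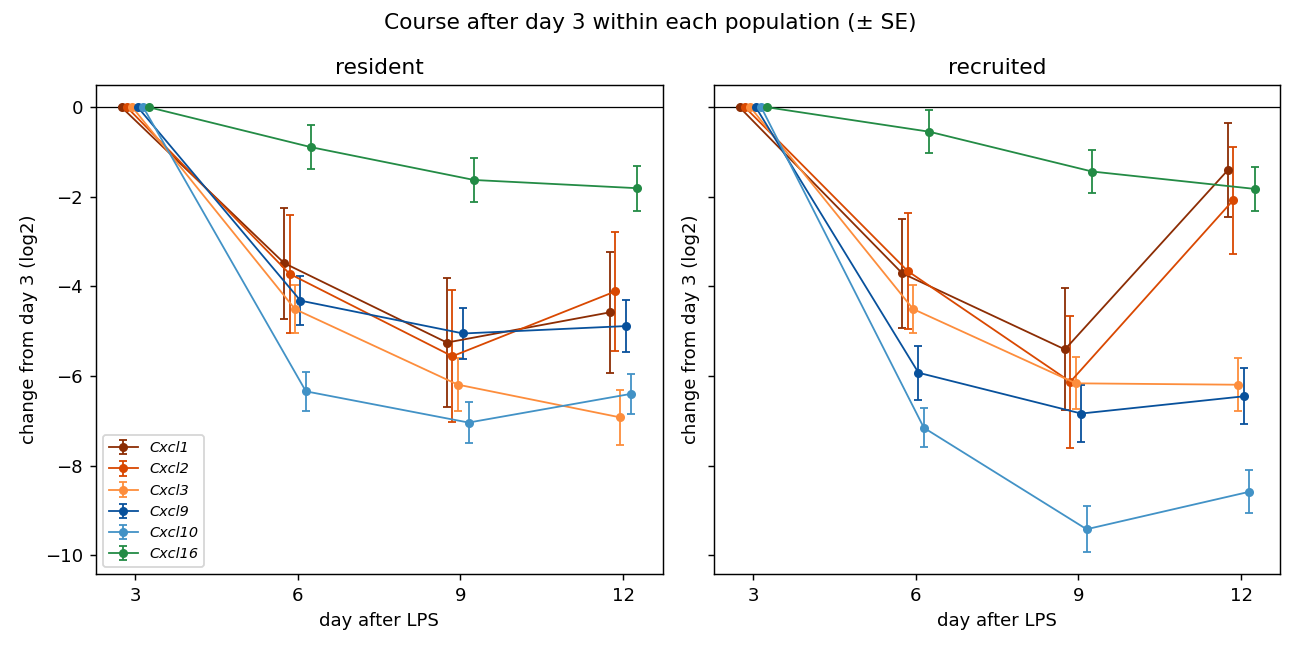
Change from day 3 (log2, with SE) on days 6, 9 and 12 in resident (left) and recruited (right) cells, 3 libraries a group, with day 3 set to 0. Cxcl16 changes by no more than -1.82, Cxcl10 falls furthest on days 6 and 9, and Cxcl1 and Cxcl2 return upward on day 12 in recruited cells through 1 library.

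Whether the populations changed differently over time was tested as a change of the recruited minus resident difference. Cxcl10 was the only one of the 6 called. Its difference on day 9 was lower than on day 3 by -2.38 ± 0.71 (adjusted p = 0.0309; 13.2% of tested genes called, 7.4% higher and 5.78% lower) and on day 12 by -2.19 ± 0.63 (adjusted p = 0.0260; 13.6%, 7.38% higher and 6.24% lower). Over all 4 days together its adjusted p was 0.0378 (10.7% of tested genes called). On day 6 none of the 6 passed, with 8.43% of tested genes called (4.18% higher, 4.26% lower), and none had an adjusted p under 0.194. With the pairs as a block, Cxcl10 was lost on day 9 (-2.37, adjusted p = 0.0562) and over the days (adjusted p = 0.0756), and it kept its call on day 12. Leaving out single libraries gave adjusted p up to 0.101 on day 9 (without recruited day 9 library 1), 0.0860 on day 12 (without resident day 12 library 1) and 0.102 over the days (without recruited day 3 library 2). Cxcl9 had changes of -1.61 ± 0.73, -1.79 ± 0.77 and -1.57 ± 0.76 on days 6, 9 and 12, none called (adjusted p = 0.194, 0.136 and 0.187). Without recruited day 9 library 2 it was called on day 9 (-3.00, adjusted p = 0.0139) and over the days (adjusted p = 0.0460). Cxcl3 was within 0.03 on days 6 and 9 (SE 0.66 and 0.70) and at 0.73 ± 0.73 on day 12 (adjusted p = 0.558). On day 12 Cxcl1 was at 3.17 ± 1.70 (adjusted p = 0.239) and Cxcl2 at 2.03 ± 1.69 (adjusted p = 0.467), where library 3 was high. Cxcl16 changed by 0.35 ± 0.68, 0.19 ± 0.68 and -0.02 ± 0.70.

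Levels were set against each other per kilobase of exon. The 6 genes together summed to 13.3 ± 5.95 CPM per kb (SD, n = 3) in untreated resident cells and to 356 ± 96.2 on day 3, and then to 30.7, 14.9 and 16.5 on days 6, 9 and 12. In recruited cells the sum was 842 ± 221 CPM per kb on day 3 and 168 ± 37.5, 83.0 ± 26.6 and 112 ± 79.2 on days 6, 9 and 12. The make-up of the sum differed. Cxcl2 (33.9%) and Cxcl10 (25.1%) were the largest shares in untreated cells, and Cxcl3 was the largest in resident cells of day 3 at 33.6 ± 5.56%, when Cxcl16 was at 8.43 ± 4.07%. Cxcl16 had the largest mean share in all other groups. Not every library followed the means. In recruited cells of day 3 Cxcl16 led in library 1 only. Cxcl2, Cxcl10 and Cxcl16 were at 297, 278 and 203 CPM per kb in library 2. In library 3 they were at 218, 189.02 and 188.61 CPM per kb. Cxcl2 was also above Cxcl16 in resident day 12 library 3 (11.3 and 4.82 CPM per kb). Cxcl2 was above Cxcl3 in resident day 3 library 2 (109 and 107 CPM per kb). The mean share of Cxcl16 in recruited cells was 26.1 ± 8.36% on day 3, 84.5 ± 9.87% on day 6 and 91.9 ± 4.43% on day 9. On day 12 it was 69.7 ± 39.3%, the lowest of the 3 libraries being 24.4%, where Cxcl2 took 66.6%. Cxcl1 was the smallest share in resident cells on each day and in recruited cells of days 3 and 6.

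**Figure D4:**
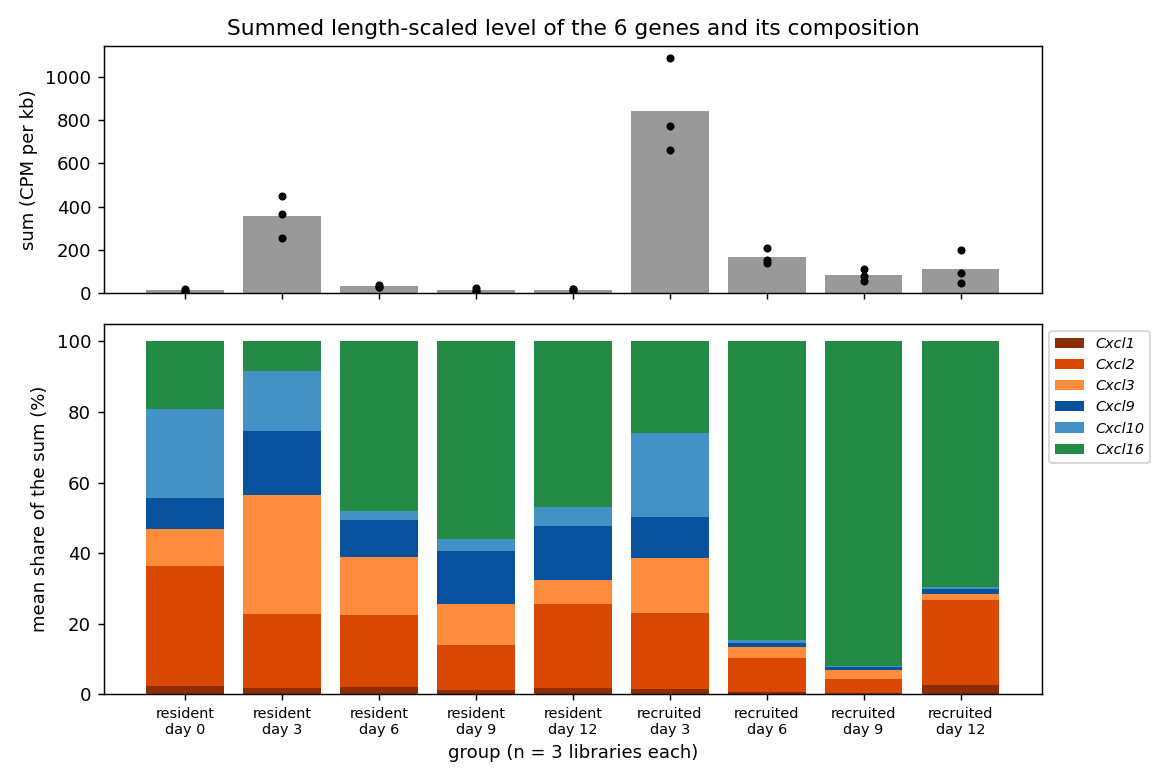
Sum of the 6 genes in CPM per kb of exon (upper panel; bars are means, points the 3 libraries) and the mean share of each gene in it (lower panel, percent) for the 9 groups. The sum is highest in recruited cells of day 3, and Cxcl16 makes up 84.5% and 91.9% of it in recruited cells of days 6 and 9.

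The genes were also compared by how single libraries deviated from their group means, which the differences between groups do not enter. Of 15 pairs of the 6 genes, 1 passed an exact two-sided permutation test that reassigned library numbers within days, for both populations together (7776 arrangements, Benjamini-Hochberg adjustment over the 15 pairs). That pair was Cxcl1 and Cxcl2, with r = 0.88 and rho = 0.87 over 27 libraries (permutation p = 0.00154 and adjusted p = 0.0231 for each). Without the 2 libraries farthest from the median of Cxcl1 r was 0.81. Cxcl9 and Cxcl10 had r = 0.69 and rho = 0.65 (exact permutation adjusted p = 0.0527 and 0.0656). Without the 2 libraries farthest from the median of Cxcl9 their r was 0.61. Cxcl9 and Cxcl16 had r = 0.43 and rho = 0.41 (adjusted p = 0.0527 and 0.180). Between the classes, Cxcl2 and Cxcl10 had r = -0.03 and rho = -0.04 (adjusted p = 0.940 and 0.937). Cxcl3 had r = 0.63 with both Cxcl1 and Cxcl2 (adjusted p = 0.161 and 0.329). These r were 0.44 and 0.37 without the 2 libraries farthest from the median of Cxcl1 and of Cxcl2, in that order. Same-numbered libraries of a day are related, so the 27 points are not all independent, and the permutation kept them together.

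**Figure D5:**
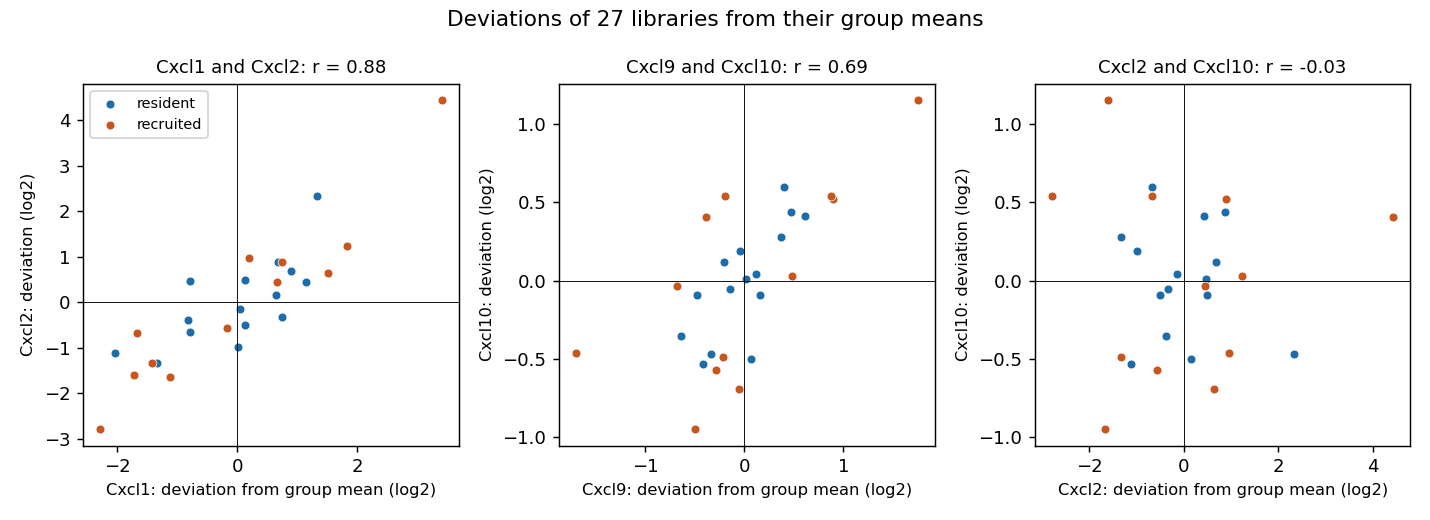
Deviation of each of the 27 libraries from its group mean (log2 CPM) for Cxcl1 and Cxcl2 (left), Cxcl9 and Cxcl10 (middle) and Cxcl2 and Cxcl10 (right); resident libraries are blue, recruited ones orange. The points of the left panel follow a line (r = 0.88), those of the right panel do not (r = -0.03).

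The genes most like each of the 6 over the 27 libraries were ranked by Pearson's r of log2 CPM among tested genes of at least 1 CPM. Cxcl1 was most like Cxcl2 (r = 0.94), Gm14023 (0.91) and Nfkbiz (0.90), and Cxcl2 most like Gm14023 (0.95), Cxcl1 (0.94) and Tnfaip3 (0.92), the gene of an inhibitor of NF-κB. Cxcl3 was most like Smpdl3b (0.94), AW112010 (0.93) and Tapbpl (0.92). Cxcl9 was most like the interferon-induced GTPase gene Gbp2 (0.97) and AW112010 (0.95), and Cxcl10 most like Isg15 (0.96), Calhm6 (0.95) and Ifit1 (0.95). Cxcl16 was most like Slfn10-ps (0.99), its overlapping neighbour Zmynd15 (0.98) and Cmklr1 (0.98), a chemoattractant receptor gene. Over the 9 group means these r were 0.92 to 0.99. Over the deviations from group means they were 0.82 to 0.91 for the partners of Cxcl1 and Cxcl2 and 0.76 to 0.90 for those of Cxcl16, and they ranged from 0.05 to 0.81 for those of Cxcl3, Cxcl9 and Cxcl10.

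Of 9 other CXC ligand genes, 3 had enough counts to be tested. Cxcl11, which lies 10655 bp from Cxcl10 and is annotated as a polymorphic pseudogene, had 603 counts over the 3 recruited and 52 over the 3 resident libraries of day 3, 2 in untreated cells and 0 to 7 in the groups of later days. It was higher in recruited cells on day 3 by 3.65 ± 0.52 (adjusted p = 1.88e-05). Pf4, a platelet chemokine that macrophages also make, was at 62.8, 38.5 and 117 CPM in recruited and 22.3, 13.6 and 24.3 CPM in resident cells of day 3 (1.85 ± 0.75, adjusted p = 0.0498), and it had risen by 5.04 ± 1.05 from untreated resident cells (adjusted p = 0.00178). Cxcl14 went the other way between the populations, at 3.78, 2.59 and 5.83 CPM in recruited and 16.0, 11.8 and 15.6 CPM in resident cells of day 3 (-1.83 ± 0.30, adjusted p = 3.10e-05). Cxcl5, another CXCR2 ligand, had 12 counts over the 3 recruited libraries of day 3 and 2 over the 3 resident ones.

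Of 8 CXC receptor genes 6 were tested, and averaged over the days 3 were higher and 2 lower in recruited cells. Of all tested genes 60.3% were called in this comparison, 30.3% higher and 30% lower. Cxcr3, the receptor of CXCL9 and CXCL10, was at 10.4, 2.75 and 4.22 CPM in recruited and 0.656, 0.334 and 0.355 CPM in resident cells of day 3, and averaged 3.07 ± 0.41 higher (adjusted p = 7.57e-07). Cxcr6, the receptor of CXCL16, was low in both, at most 3.92 CPM in any library, and averaged 1.05 ± 0.30 higher (adjusted p = 0.00444). Cxcr2, the receptor of CXCL1 to CXCL3, was lower on average (-1.60 ± 0.35, adjusted p = 0.000528) but not on day 3, when its libraries overlapped (0.20 ± 0.65, adjusted p = 0.830). Cxcr1 averaged -3.64 ± 0.24 (adjusted p = 3.61e-11).

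The lists of genes upstream of the 6 chemokines were described over the same comparisons, beside the shares called among all tested genes given above. Of 13 NF-κB factors and inhibitors, 10 rose in resident cells by day 3, with Nfkbiz (3.08 ± 0.79), the inhibitor genes Tnip3 (3.05 ± 0.53) and Tnfaip3 (2.52 ± 0.56), and Bcl3 (1.82 ± 0.41) first. The median change of the list was 1.57. On day 3, 12 of the 13 were higher in recruited cells, by a median of 0.98, and by day 6 10 had fallen in resident and 11 in recruited cells. Of 11 tested genes of inducing cytokines and their receptors, 8 rose in resident cells by day 3. Il1r2 had 396 counts over the day 3 libraries and 1 in untreated cells, and Il17a, made by lymphocytes and not by macrophages, had 54 and 0. Il1b rose by 4.36 ± 0.58 (adjusted p = 2.49e-05), and Il6 was at 77 counts after 3. Il6 (3.08 ± 0.82) and Il1b (2.50 ± 0.53) were higher in recruited cells of day 3.

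Of 15 tested genes of the interferon-γ axis, 9 rose and 1 fell in resident cells by day 3, by a median of 2.52 over the list. The GTPase genes Iigp1 (7.43 ± 0.79), Gbp2 (4.09 ± 0.30) and Gbp3 (3.85 ± 0.24) and the feedback inhibitor Socs1 (4.94 ± 0.39) led. On day 3, 13 of the 15 were higher in recruited cells, the kinase gene Jak2 by 2.34 ± 0.15 and Iigp1 by 1.96 ± 0.46. Ifng itself had 14 counts over the resident and 45 over the recruited libraries of day 3. Of 16 tested type I interferon genes, 13 rose in resident cells by day 3, Isg15 by 3.03 ± 0.50 and Cmpk2 by 2.78 ± 0.48, by a median of 1.98 over the list. On day 3, 15 of the 16 were higher in recruited cells, with Ifi44 (4.69 ± 0.47), Mx1 (3.38 ± 0.52), Oasl1 (3.26 ± 0.62) and Usp18 (3.05 ± 0.45) first, by a median of 2.28. By day 6, 11 of the 16 had fallen in resident and 15 in recruited cells.

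Of 13 genes of LPS sensing, 7 were higher in recruited cells of day 3, with the co-receptor gene Cd14 at 2.74 ± 0.30 and Ly96 at 1.59 ± 0.28, and by day 3 resident cells had 5 higher and 1 lower, Irak3 by 2.22 ± 0.15. Of 8 regulators of mRNA decay 1 rose in resident cells by day 3, Zc3h12a by 1.32 ± 0.25, against 13.3% of all tested genes called higher. On day 3, Zfp36l1 was 2.405 ± 0.26 higher and Zfp36l2 lower (-0.81 ± 0.16) in recruited cells. All 3 genes of the release of CXCL16 were higher in recruited cells averaged over the days, by less than Cxcl16: Adam17 by 0.50 ± 0.08, Rhbdf2, a partner of that protease, by 0.42 ± 0.07, and Adam10 by 0.27 ± 0.10.

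Sums of neutrophil markers and of T and NK cell markers were higher in resident cells of day 3 than in untreated ones. Those of some other cells were lower. Epithelial markers summed to 120 to 207 CPM in untreated and 86.9 to 114 CPM in resident cells of day 3. Endothelial and stromal markers summed to 237 to 447 CPM and 94.0 to 143 CPM, in that order. The sum of 14 neutrophil markers was 117 to 140 CPM in untreated resident cells, 857, 1382 and 1877 CPM in resident and 1498, 2639 and 2164 CPM in recruited cells of day 3. On day 6 it was 142 to 174 and 392 to 469 CPM. Library 1, which had the lowest Cxcl1 and Cxcl2 of day 3 in both populations, also had the lowest neutrophil sum in both. Of the 14 genes 6 rose in resident cells by day 3, against 13.3% of all tested genes called higher. The 14 are all genes of the list, whether or not they had enough counts to be tested. The rises were led by Lcn2 and S100a9, which macrophages and monocytes can also make. Ly6g, a surface marker of mature neutrophils, had 0 counts in untreated cells, 4 over the 3 resident and 6 over the 3 recruited libraries of day 3. Retnlg had 2, 102 and 154 counts and S100a8 had 152, 2667 and 6446. Elane and Mpo, which are made mainly in neutrophil precursors, had at most 1 count in any of these groups. The sum of 15 T and NK cell markers was 0.536 to 0.692 CPM in untreated cells, 3.97 to 10.4 CPM in resident and 7.14 to 25.3 CPM in recruited cells of day 3, with Cd3e at 16 and 34 counts. Library 1 had the highest of these sums in both populations, and its Cxcl9 and Cxcl10 values were not the highest. The part of such cells in the chemokine values was not tested.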

How the data were processed

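Per the labels' protocols, polyA RNA was sequenced on an Ion Proton with a modified stranded kit. The deposited table holds raw counts, made by the authors and not normalized, with Ensembl genes in rows and a column for each library. A second deposited table of read counts not assigned to genes stayed out of library sizes and tests. The submitters' processing notes name the build mm10, HTSeq 0.6.0, STAR 2.4.0a, R 3.1.0 and DESeq2 1.4.5, with no role given. The sources used here do not give the strand setting. Symbols and positions came from GENCODE M21 (36345 of 38124 genes matched) and promoter sequences from RefSeq.

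Counts were filtered with edgeR's filterByExpr (minimum count 10, total 15), scaled by TMM and fitted in edgeR 4.0.16 (R 4.3.3) with 1 mean per group over 27 libraries and 18 residual degrees of freedom. The 19 comparisons used the quasi-likelihood F test, two-sided for single contrasts, with Benjamini-Hochberg adjustment within each. The SE comes from the F statistic. With 3 libraries against 3 an exact test of a single gene cannot go below p = 0.1. The fit was tested on simulated data. Comparisons with day 0, and those with day 3 of 1 population, share those libraries. Library counts limit the precision, and limits for a count of 0 (3 counts) cover counting error only.

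Equal numbers pair the populations within a day: deviations from group means correlated in 12 of 12 pairs (r = 0.17 to 0.52 across genes), and 12 of 12 libraries correlated best with their own number, a pairing that comes from the data. Between days 10 of 30 resident and 4 of 18 recruited pairs exceeded 0.1, so numbers there are only names.

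The 6 genes and the gene lists were chosen with earlier results of these data known. From each list up to 4 called genes were named by size of change, and genes with 0 to 3 counts in a group by counts. Among the genes most like the 6 and the motifs searched, 1 each is not reported here. Alternatives were DESeq2 1.42.0, library-size scaling, no filter, a filter of 1 CPM in 3 libraries, only the compared groups, a replicate block, the run of library numbers in the headers (4 runs, grouped by eye), non-robust dispersions and leaving out each library. Leaving out both day 3 libraries numbered 1, or both day 12 libraries numbered 3, was added after seeing the data.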

Additional observations from a re-analysis of the deposited data

Results flagged for a closer look

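The difference between recruited and resident cells changed over time for Cxcl10 by a test of the change itself. Relative to day 3, the recruited minus resident difference of Cxcl10 was lower by -2.38 on day 9 (log2; SE 0.71, edgeR adjusted p = 0.0309) and by -2.19 on day 12 (SE 0.63, adjusted p = 0.0260), and the test over the 4 days together gave an adjusted p of 0.0378. In pairs of the same day and number, the recruited library was higher in 3 of 3 on day 3, 2 of 3 on day 6, 1 of 3 on day 9 and 1 of 3 on day 12. The counts behind the late values are low: Cxcl10 had 30 counts over the 3 recruited libraries of day 9 and 49 on day 12, against 50 and 76 in resident cells. With the pairs as a replicate block the call was lost on day 9 (adjusted p = 0.0562) and over the days (adjusted p = 0.0756) and kept on day 12. The call was made in 11 of 21 alternatives for day 9 (adjusted p 0.00296 to 0.101), 16 of 22 for day 12 (0.00359 to 0.0860) and 16 of 34 over the days (0.00220 to 0.102).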

How the results depend on the processing

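Of 2037 alternative values of the 6 genes, 1881 stayed on their side of the threshold, 119 lost the call and 37 gained one. Of the 1881, 71 changed sign, none of them called before or after. Cxcl16 between the populations, and the day 3 rises of Cxcl3, Cxcl9, Cxcl10 and Cxcl16 in resident cells, were called in every alternative run. Of 108 group levels under other scalings 0 moved by over 1 SD. The late values of Cxcl1 and Cxcl10 rest on few counts. The replicate numbers pair the populations within a day, and the pairing changed no call of the 6 genes other than those given in the report. The causes of the changes below were not tested, beyond the smaller number of libraries where some were left out.

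Counts of all genes called depended most on the fit. For the change of the population difference from day 3, they were 1147 on day 6, 1793 on day 9, 1853 on day 12 and 1449 over the days, with 2143, 2931, 2937 and 2463 under the replicate block and 2062, 2802, 2819 and 2483 with the run of header numbers as a covariate. With only the compared groups in the fit the day 9 count was 947. Leaving out single libraries gave 897 to 1679 over the days. For resident cells against day 0 the counts were 873 on day 6, 474 on day 9 and 177 on day 12. With the run as a covariate they were 1586, 1076 and 379, by DESeq2 812 on day 9 and 384 on day 12, and with only the compared groups 1446 on day 6 and 122 on day 9. Without single libraries they were 450 to 605, 167 to 405 and 75 to 144, and 1895 to 2850 on day 3 (3232 in all libraries). Resident cells against day 3 gave 1948 to 2857 on day 6, 1960 to 3333 on day 9 and 1874 to 2726 on day 12 without single libraries, against 3329, 3284 and 3289. With only the compared groups, recruited day 9 against day 3 gave 2772 in place of 4933, and the populations on day 9 gave 2497 in place of 4350. Without both day 12 libraries numbered 3, an alternative chosen after seeing the data, the populations on day 12 gave 2453 in place of 3713, the change of their difference 1083, and resident day 12 against day 0 98.

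Library size alone as scaling moved the split of higher to lower calls, from 3149 and 3193 to 2302 and 3668 between the populations on day 3, from 2114 and 2236 to 2170 and 1900 on day 9, and from 1802 and 1430 to 1427 and 1626 for resident day 3 against day 0. For the change of their difference it moved from 568 and 579 to 752 and 311 on day 6, from 1007 and 786 to 1393 and 428 on day 9, and from 1004 and 849 to 1204 and 479 on day 12. For recruited cells against day 3 it moved from 2051 and 2281 to 2341 and 1739 on day 6 and from 2479 and 2454 to 3044 and 1787 on day 9. For resident cells against day 0 it moved from 513 and 360 to 371 and 630 on day 6, from 219 and 255 to 175 and 457 on day 9, and from 149 and 28 to 124 and 69 on day 12.

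Among the 6 genes, the count called for the change of the population difference was 1 on days 9 and 12 and over the days. It was 0 for all 3 with no filter on low counts, 0 on day 9 and over the days under the block and with only the compared groups, and 0 over the days without both day 12 libraries numbered 3. Leaving out single libraries gave 0 to 2 on day 9, 0 to 1 on day 12 and 0 to 2 over the days. Between the populations the count was 2 on average and on day 12. It was 1 for both with no filter and without both day 12 libraries numbered 3, 1 on day 12 with only the compared groups, and 1 to 4 on average and 1 to 3 on day 12 without single libraries. On day 6 it was 2 in place of 1 with only the compared groups, and on day 9 1 to 2 without single libraries. For recruited day 6 against day 3 it was 3 in place of 5 with no filter and 3 to 5 without single libraries. For resident day 6 against day 3 it was 3 in place of 5 with no filter and with library size alone, and 3 to 5 without single libraries, and for day 12 against day 3 it was 3 to 6. For resident day 9 against day 0 it was 2 in place of 1 by DESeq2, with library size alone, under the block, with robust dispersions off and with the run as a covariate. For day 12 against day 0 it was 0 without both day 12 libraries numbered 3, 2 with the run as a covariate, and 0 to 1 without single libraries.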
